A study of Mus musculus with 15 samples.

Results

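The cytokine genes described here are *Il6*, *Il10*, *Il12a*, *Il12b*, *Il23a*, *Il27*, *Ebi3*, *Lif*, *Csf2* and *Csf3*, which encode interleukins of the IL-6, IL-10 and IL-12 families, leukemia inhibitory factor and the colony-stimulating factors of granulocytes and macrophages. They were taken by name from the deposited expression table, in which each has its own entry, and are 10 of the 20089 complete genes analysed here. All 10 passed the filter on low values (a mean of at least 0.1 FPKM over the 15 samples), which left 11743 genes, but *Il23a* and *Csf3* had means under 0.1 FPKM in control and in both RANKL groups and passed through the LPS groups alone. Expression is given as FPKM, fragments scaled to transcript length and to the depth of the library.

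The samples were bone marrow-derived macrophages (BMDMs) of wild-type C57BL/6 mice, cells that marrow precursors form under macrophage colony-stimulating factor (M-CSF). All 5 groups had received M-CSF, and each held 3 samples. Control cells had M-CSF alone, and the others were given receptor activator of NF-κB ligand (RANKL), which drives osteoclast formation, or lipopolysaccharide (LPS), a bacterial cell wall component, for 4 h or 3 d. The study used LPS to find which genes answer to RANKL and not to inflammatory stimulation in general. A group held in M-CSF without stimulus until 3 d is not among the samples analysed here, so against control the stimulus and the added time in culture cannot be told apart. The labels do not say whether samples of a group came from separate animals or cultures, and p-values then measure only the spread between these samples, which may be technical.

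IL-6 and leukemia inhibitory factor act through receptors that share the gp130 chain (*Il6st*), whereas IL-10 acts through *Il10ra* and *Il10rb* and restrains the output of macrophages. The IL-12 family is built from paired chains. The product of *Il12b* joins that of *Il12a* to form IL-12 or that of *Il23a* to form IL-23, and the product of *Ebi3* joins that of *Il27* to form IL-27 or that of *Il12a* to form IL-35. *Csf2* (GM-CSF) and *Csf3* (G-CSF) direct the growth and activity of myeloid cells. In macrophages, LPS acts through Toll-like receptor signaling and NF-κB, and many of these genes are known targets of that route. In bone, several of these cytokines are known to influence osteoclast formation.

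To show the regulatory DNA of genes that moved together in LPS 4 h but differed in later samples, the 250 bases upstream of the annotated start site are printed for *Il6* and *Lif*, for the IL-12 family chains *Il12b* and *Ebi3*, and for *Csf2*. The sequences are from RefSeq on GRCm38.p6, 5′ to 3′ on the strand of the gene. RefSeq windows were matched for 6 of the 10 genes. Capitals mark matches, on either strand, to any of 5 motifs. They are the NF-κB type (GGG and CC with any 5 bases between), the C/EBP type (TTGC and AA with any 2 bases between), the AP-1 type (TGA and TCA with any base between), the interferon response type (GAAA repeated after any 2 bases) and the TATA box (TATAAA).
Il6, chr5:30012864-30013113, plus strand: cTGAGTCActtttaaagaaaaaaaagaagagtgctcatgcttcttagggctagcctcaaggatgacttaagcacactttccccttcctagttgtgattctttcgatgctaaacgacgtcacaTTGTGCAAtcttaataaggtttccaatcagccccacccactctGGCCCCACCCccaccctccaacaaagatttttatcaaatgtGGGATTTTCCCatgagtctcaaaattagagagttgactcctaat
Lif, chr11:4257318-4257567, plus strand: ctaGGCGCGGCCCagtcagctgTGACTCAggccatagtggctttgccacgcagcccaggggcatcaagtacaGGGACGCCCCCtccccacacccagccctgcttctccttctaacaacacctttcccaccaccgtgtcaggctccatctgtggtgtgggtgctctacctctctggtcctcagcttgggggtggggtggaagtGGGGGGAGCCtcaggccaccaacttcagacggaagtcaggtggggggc
Il12b, chr11:44399813-44400062, plus strand: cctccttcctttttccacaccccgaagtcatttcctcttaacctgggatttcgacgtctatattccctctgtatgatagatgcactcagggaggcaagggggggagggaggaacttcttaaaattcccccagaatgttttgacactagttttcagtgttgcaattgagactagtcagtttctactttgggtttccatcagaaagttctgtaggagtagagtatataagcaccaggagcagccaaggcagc
Ebi3, chr17:55952373-55952622, plus strand: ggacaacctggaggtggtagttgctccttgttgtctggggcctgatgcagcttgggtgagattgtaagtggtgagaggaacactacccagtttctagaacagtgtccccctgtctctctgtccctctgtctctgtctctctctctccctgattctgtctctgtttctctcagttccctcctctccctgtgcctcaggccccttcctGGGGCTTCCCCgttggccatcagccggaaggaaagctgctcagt
Csf2, chr11:54249900-54250149, minus strand: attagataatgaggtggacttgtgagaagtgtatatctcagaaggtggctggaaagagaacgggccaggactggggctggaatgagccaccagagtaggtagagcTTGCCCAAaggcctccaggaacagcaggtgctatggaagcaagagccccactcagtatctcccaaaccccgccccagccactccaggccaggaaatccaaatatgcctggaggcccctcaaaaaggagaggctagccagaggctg
The *Il6* window held NF-κB type matches whose first bases lay at -85, -44 and -43 from the start, the last 2 overlapping on opposite strands, a C/EBP type match at -128 and an AP-1 type match at the far end of the window. *Lif* held 5 NF-κB type matches, 3 of them overlapping, and 1 AP-1 type match. *Ebi3* held 4 NF-κB type matches that overlap at a single place, *Csf2* held a C/EBP type match and the *Il12b* window held none of the 5 motifs. *Il12a* has 2 annotated starts, of which 1 held 2 overlapping NF-κB type matches and the other none. Of 32851 promoter windows of this length, 45.8% held the NF-κB type motif, 9.56% the C/EBP type, 6.75% the AP-1 type, 2.98% the interferon response type and 12.4% the TATA box, so a match to the NF-κB type letters alone is common. Among 11464 windows of the genes tested here, the shares in the same order were 61.0%, 8.04%, 4.95%, 2.88% and 6.82%. These are matches of letters and not measured binding sites.

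On GRCm38.p6, *Il6* spans 30013114 to 30019975 on chromosome 5, *Il10* spans 131019845 to 131024970 on chromosome 1, *Il12a* spans 68690644 to 68698550 on chromosome 3 and *Il23a* spans 128296140 to 128298084 on chromosome 10. *Il27* lies on chromosome 7 from 126589009 to 126595035 and *Ebi3* on chromosome 17 from 55952623 to 55957022. On chromosome 11, *Lif* spans 4257568 to 4272514, *Il12b* 44400063 to 44414677, *Csf2* 54247270 to 54249899 and *Csf3* 98700183 to 98703631. The annotation places another gene over part of *Il6* (*A230098N10Rik*), *Il27* (*Apobr*), *Ebi3* (*Zfp119b* and *Gm16712*), *Csf2* (*Gm12223*) and *Csf3* (*Gm38985*). Whether the counting used strand is not given in the sources used here, so fragments of such pairs may not be separated.

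Between 18306184 and 20330207 fragments fell on the listed genes per sample. Markers of macrophages such as *Adgre1* and *Lyz2* were present in every group, but the libraries were not of a single cell type: the 10 neutrophil markers summed to 7611 to 24069 FPKM in control and to 319 to 2035 FPKM in LPS 3 d, and B cell markers to 29.9 to 61.5 FPKM in control. By the test described below, 8 of 8 genes that mark a response to LPS rose in LPS 4 h and 7 in LPS 3 d. Of 10 osteoclast markers 9 rose in RANKL 3 d and 0 in RANKL 4 h. Of all genes tested, 8.43% rose in LPS 4 h, 13.0% in LPS 3 d, 16.6% in RANKL 3 d and 0.111% in RANKL 4 h. LPS 3 d replicate 3 stood apart. Its mean correlation with the other samples of its group was 0.966, against 0.977 and 0.980 for replicates 1 and 2. It had 2203 FPKM of the LPS response genes against 4617 and 4441, 2035 FPKM of neutrophil markers against 349 and 319, 465 FPKM of stromal markers against 85.7 and 80.7, and 17674 FPKM of macrophage markers against 6123 and 7918. Where leaving it out changed a call of the 10 genes or moved a called value of theirs by over 1.5 times, the value without it is given. In bulk samples, a larger share of a cell type and more RNA per cell cannot be told apart.

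**Figure D1:**
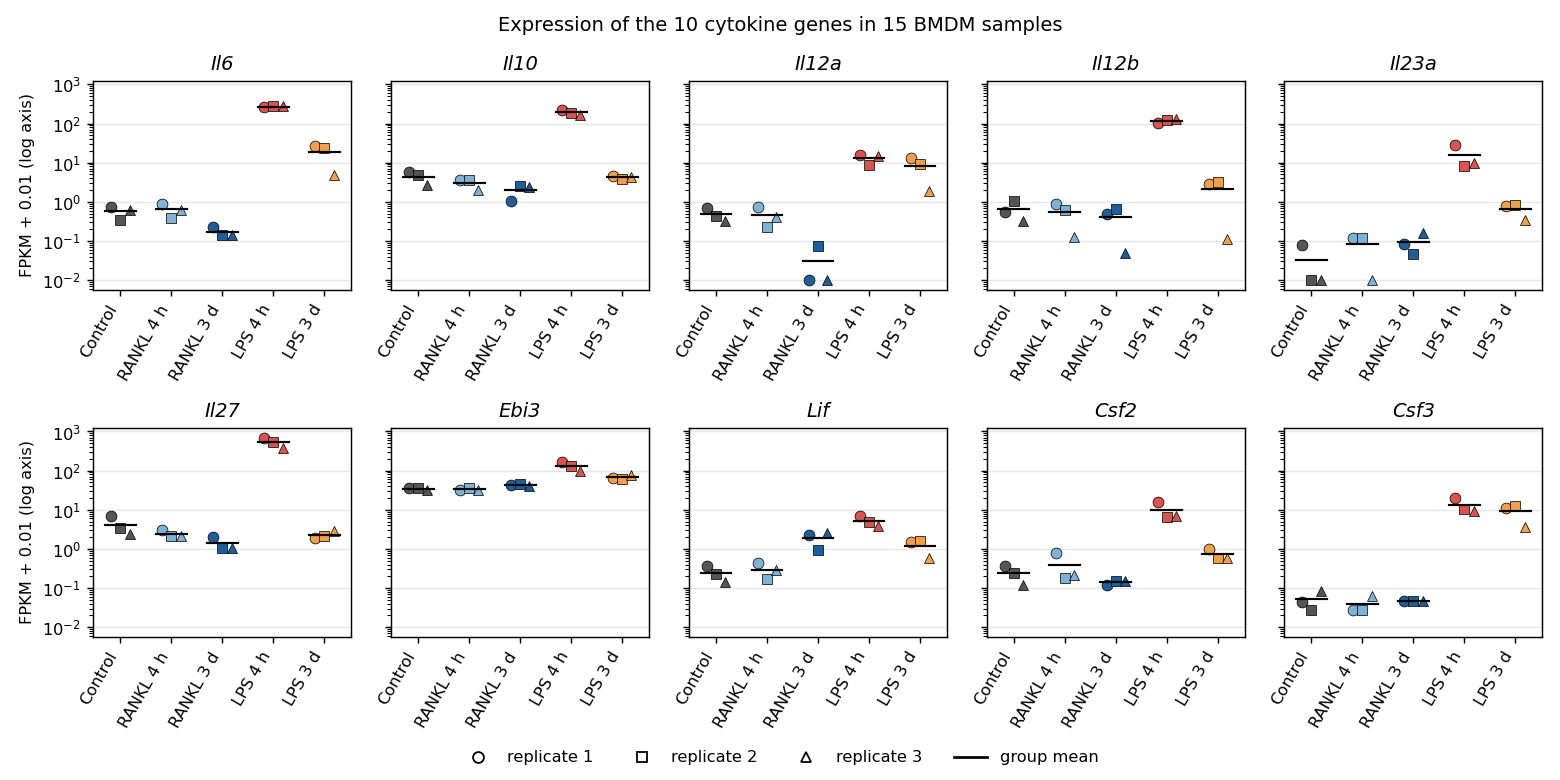
FPKM of the 10 genes in each sample, as FPKM + 0.01 on a log axis so that samples at 0 can be drawn, with the 5 groups on the horizontal axis, a symbol for each replicate number and a line for the group mean. In LPS 4 h all 3 samples of every gene lie above all control samples, and in LPS 3 d replicate 3 of *Il6*, *Il12a*, *Il12b* and *Csf3* lies well under the other replicates.

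All 10 genes rose in LPS 4 h. Differences were tested as log2(FPKM + 0.1) with limma over all 11743 genes, and a call needed a fold over 1.5 or under 0.66 together with a Benjamini-Hochberg adjusted p under 0.05 (SE, standard error). For genes with low FPKM this scale gives too small a fold. In LPS 4 h against control 8.43% of all genes tested passed as higher and 39.7% as lower, and the samples did not overlap for any of the 10 genes. Over all genes tested, 10.6% lay wholly above control and 56.2% wholly below it. The median log2 fold change was 5.98 over the 10 genes and -0.52 over all genes tested. *Il23a* and *Csf3* passed the filter through the LPS groups alone, so their rise is not independent of it. This limit holds for every count of the 10 genes in comparisons of LPS with control or RANKL. With samples centred on their median gene the split over all genes turned from 990 higher and 4660 lower to 1871 higher and 1529 lower, while all 10 cytokine genes were still higher.

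*Il6*, the founding member of its family and an inducer of acute phase proteins, had 0.734, 0.329 and 0.613 FPKM in the control samples, 262, 276 and 279 FPKM in LPS 4 h and 27.1, 24.2 and 4.92 FPKM in LPS 3 d. The 3 groups did not overlap, and the LPS 4 h samples were close to each other, with a coefficient of variation of 3.28%. The rise in LPS 4 h ranked 2 of 11743 among the log2 fold changes. In LPS 3 d *Il6* was still above control by a log2 fold change of 4.55 (SE 0.50, limma adjusted p = 2.56e-05), which ranked 10, and stood at 6.88% of its LPS 4 h mean. Replicate 3 of LPS 3 d was at 1.81% of that mean and the other replicates at 9.97% and 8.88%.

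*Lif*, which keeps stem cells undifferentiated and acts on bone cells, stayed at lower FPKM. It had 0.349, 0.223 and 0.130 FPKM in control, 6.77, 4.96 and 3.84 FPKM in LPS 4 h and 1.47, 1.56 and 0.582 FPKM in LPS 3 d, again with no overlap between the groups. Its log2 fold change was 4.00 (SE 0.43, limma adjusted p = 5.14e-06) in LPS 4 h and 1.91 (SE 0.43, adjusted p = 0.00405) in LPS 3 d. Within a sample *Il6* exceeded *Lif* 38.7 to 72.5 times in LPS 4 h and 1.48 to 4.72 times in control, on the FPKM scale.

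*Il10*, the main cytokine that limits macrophage inflammation, rose in LPS 4 h and was back in the control range in LPS 3 d. The control samples had 5.70, 4.74 and 2.72 FPKM, LPS 4 h had 226, 184 and 169 FPKM, and LPS 3 d had 4.64, 3.90 and 4.22 FPKM. LPS 4 h did not overlap with either group. The log2 fold change was 5.48 (SE 0.33, limma adjusted p = 2.60e-08) in LPS 4 h, and 0.02 in LPS 3 d with a 95% interval from -0.68 to 0.72. The ratio of *Il10* to *Il6* within a sample was 4.43 to 14.4 in control, 0.608 to 0.863 in LPS 4 h, and 0.171, 0.162 and 0.858 in LPS 3 d, where replicate 3 again differed from the others.

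The chains of the IL-12 family reached different levels in LPS 4 h. *Il12b*, the chain shared by IL-12 and IL-23, had 0.539, 1.07 and 0.319 FPKM in control and 101, 124 and 132 FPKM in LPS 4 h. *Il12a*, its partner in IL-12, had 0.685, 0.420 and 0.3196 FPKM in control and 15.9, 8.61 and 14.4 FPKM in LPS 4 h. The ratio of *Il12b* to *Il12a* was 0.787, 2.54 and 0.999 in control, and in LPS 4 h *Il12b* exceeded *Il12a* 6.35, 14.4 and 9.15 times. Their log2 fold changes were 7.44 (SE 0.94) for *Il12b* and 4.51 (SE 0.58) for *Il12a*, with adjusted p = 1.94e-05 and 2.28e-05 from limma.

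The order of these chains was the opposite in LPS 3 d. *Il12a* had 13.1, 9.28 and 1.86 FPKM, which overlapped LPS 4 h, and *Il12b* had 2.92, 3.26 and 0.09996 FPKM, the last from 5 fragments. Here *Il12a* exceeded *Il12b* 4.48, 2.85 and 18.6 times. *Il12a* remained above control (log2 fold change 3.49, SE 0.58, limma adjusted p = 0.000489) and kept 62.4% of its LPS 4 h mean, a difference from LPS 4 h that did not pass the test (log2 fold change -1.02, 95% interval -2.26 to 0.23). *Il12b* kept 1.76% of its LPS 4 h mean and was not called against control (log2 fold change 0.90, adjusted p = 0.480). Without LPS 3 d replicate 3 *Il12b* was above control, with a log2 fold change of 2.23 (limma adjusted p = 0.0224), and the value for *Il12a* was 4.32. Over all genes tested, 2115 were called higher than control without that sample and 1522 with it.

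*Il23a*, which pairs with *Il12b* in IL-23, was listed at 0.0685 FPKM in control replicate 1, from 2 fragments, and at 0 in the other control samples. LPS 4 h had 28.1, 8.37 and 10.02 FPKM, and replicate 1 was well above the others. Over the group, 1315 fragments in LPS 4 h against 2 in control give a ratio of 653, with an exact 95% counting interval from 181 to 5402. In LPS 3 d the gene had 0.760, 0.822 and 0.332 FPKM from 54 fragments in all, above every control sample (log2 fold change 2.56, SE 0.47, limma adjusted p = 0.00102). With 1 in place of 0.1 added to FPKM this call was lost (adjusted p = 0.0975). Counting intervals cover counting error only, since fragments of an amplified library are not independent molecules.

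*Il27* and *Ebi3*, the chains of IL-27, took different courses. *Il27* had 6.75, 3.32 and 2.44 FPKM in control, 697, 554 and 377 FPKM in LPS 4 h and 1.94, 2.09 and 2.79 FPKM in LPS 3 d. Its LPS 4 h mean of 543 FPKM was the highest of the 10 genes and ranked 115 among all genes of the table. *Ebi3* was the only one of the 10 with a mean above 5 FPKM in control, at 36.5, 35.1 and 32.8 FPKM, and had 163, 128 and 100 FPKM in LPS 4 h and 64.1, 61.2 and 76.3 FPKM in LPS 3 d. In LPS 4 h *Il27* rose by a log2 fold change of 7.07 (SE 0.35, limma adjusted p = 5.75e-09) and *Ebi3* by 1.88 (SE 0.15, adjusted p = 3.38e-07). After 3 d of LPS *Ebi3* was still above control (log2 fold change 0.94, SE 0.15, adjusted p = 0.000355), and *Il27* had a log2 fold change of -0.74 (adjusted p = 0.114) at 0.419% of its LPS 4 h mean. Without control replicate 3 *Il27* was lower in LPS 3 d than in control (log2 fold change -1.05, adjusted p = 0.0407).

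*Ebi3* exceeded *Il27* 5.41, 10.6 and 13.4 times in the control samples, *Il27* exceeded *Ebi3* 4.26, 4.32 and 3.76 times in LPS 4 h, and *Ebi3* exceeded *Il27* 33.0, 29.3 and 27.4 times in LPS 3 d. The 3 groups did not overlap in this ratio. FPKM of 2 genes compare mRNA per length and do not give the amounts of protein or of assembled cytokine.

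**Figure D2:**
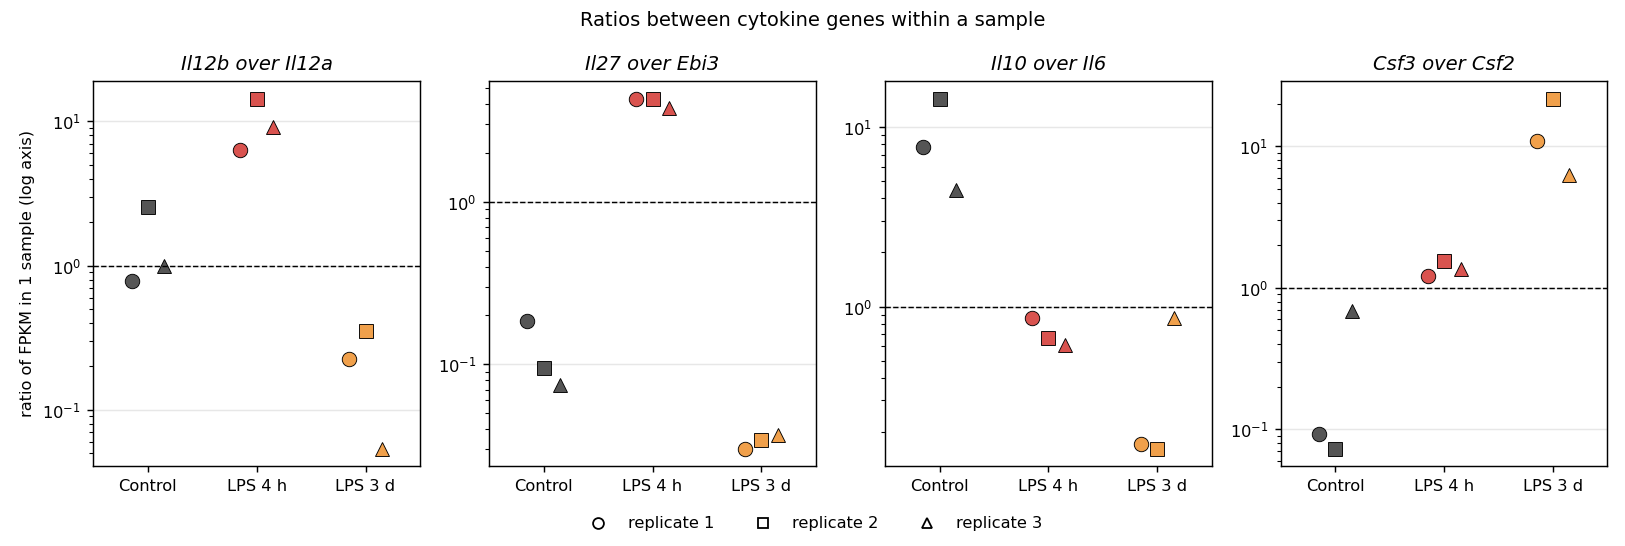
Ratio of FPKM between paired genes within each sample, on a log axis, for control, LPS 4 h and LPS 3 d, with a symbol for each replicate number and a dashed line where both genes are equal. *Il12b* over *Il12a* and *Il27* over *Ebi3* lie above 1 in LPS 4 h and under 1 in LPS 3 d in all 3 samples. *Csf3* over *Csf2* in control rests on 1 to 4 fragments of *Csf3* per sample.

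The colony-stimulating factors were nearly silent in control. *Csf2*, which supports granulocytes, macrophages and dendritic cells, had 0.366, 0.235 and 0.107 FPKM in control, 15.9, 6.63 and 6.84 FPKM in LPS 4 h and 1.01, 0.590 and 0.573 FPKM in LPS 3 d. *Csf3*, the main growth factor of neutrophils, had 0.0340, 0.0171 and 0.0730 FPKM in control, from 2, 1 and 4 fragments, then 19.4, 10.3 and 9.28 FPKM in LPS 4 h and 10.9, 12.8 and 3.60 FPKM in LPS 3 d. The LPS samples of both genes lay above all control samples. *Csf2* rose in LPS 4 h by a log2 fold change of 4.83 (SE 0.45, limma adjusted p = 1.35e-06), and *Csf3* by 6.47 (SE 0.40, adjusted p = 3.90e-08). For *Csf3*, 2231 fragments in LPS 4 h against 7 in control give a ratio of 317, with an exact 95% counting interval from 153 to 789.

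The factors differed in LPS 3 d. *Csf3* kept 70.2% of its LPS 4 h mean and was above control by a log2 fold change of 5.85 (SE 0.40, limma adjusted p = 9.48e-07). Its 1555 fragments against 7 in control give a ratio of 226, with an exact 95% counting interval from 109 to 562. With so few fragments in control, the log2 fold changes of *Csf3* and *Il23a* against control depend on the 0.1 added to FPKM. *Csf2* kept 7.39%, and its log2 fold change against control was 1.33 (SE 0.45, adjusted p = 0.0341). The call of *Csf2* was lost with 1 added to FPKM, with no filter on the mean, with samples centred on their median gene, with voom, and when control replicate 2 or 3 or LPS 3 d replicate 1 or 2 was left out (adjusted p = 0.0518 to 0.157). *Csf3* exceeded *Csf2* 1.22 to 1.55 times in LPS 4 h and 6.29 to 21.7 times in LPS 3 d.

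**Figure D3:**
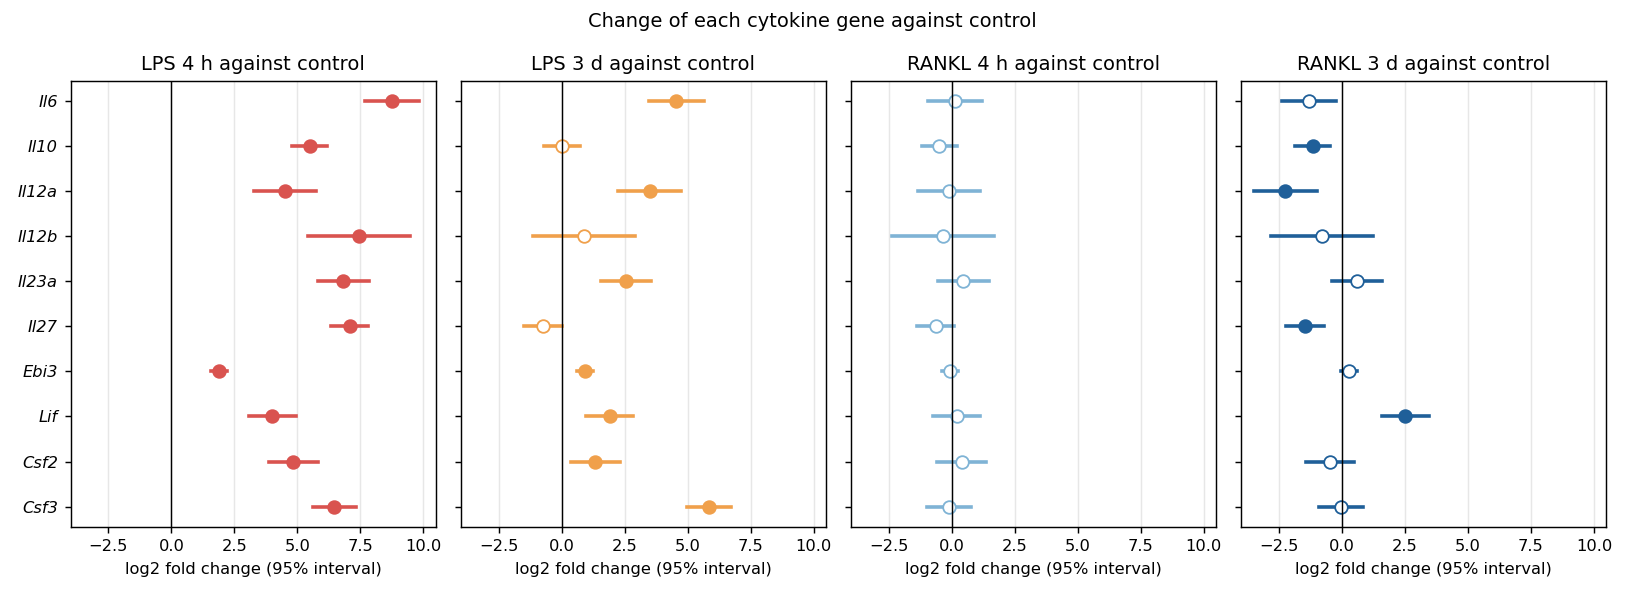
Log2 fold change of each gene against control, with the 95% interval of limma as a bar, in 4 panels for LPS 4 h, LPS 3 d, RANKL 4 h and RANKL 3 d, where filled points passed the fold and adjusted p limits and open points did not. All 10 genes are filled at LPS 4 h, 7 at LPS 3 d, 0 at RANKL 4 h and 4 at RANKL 3 d. The 4 panels share the control samples.

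Against control, then, 7 of the 10 genes were higher in LPS 3 d and 0 lower, where 13.0% of all genes tested were called higher and 14.4% lower (1522 higher and 1690 lower, or 1212 and 1887 with samples centred on their median gene). The exceptions were *Il10*, *Il12b* and *Il27*, and the samples overlapped for these 3 alone. All LPS 3 d samples lay above all control samples for 23.1% of the genes tested and below them for 21.0%. The median log2 fold change was 1.62 over the 10 genes and 0.08 over all genes tested. Markers of other cells moved in the same comparison, with 9 of 10 neutrophil markers (the other was higher), 7 of 8 B cell markers, 5 of 6 mast cell and basophil markers and 4 of 7 dendritic cell markers lower, and *Cd209a* and *Siglech* listed at 0 in every LPS 3 d sample. The part of these cells in the cytokine results was not tested. The rise of *Il6*, *Il12a* and *Csf3* was larger without replicate 3, the LPS 3 d sample with most neutrophil and stromal marker RNA (log2 fold changes 5.34, 4.32 and 6.42).

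A direct comparison of LPS 3 d with LPS 4 h found 8 of the 10 genes lower and 0 higher, against 13.9% of all genes lower and 44.2% higher. Centring samples on their median gene turned the split over all genes from 5186 higher and 1631 lower to 2209 higher and 3224 lower. *Il12a* and *Csf3* were the genes not called, and their samples overlapped between the times. The other 8 genes did not overlap and were lower, as were 16.4% of all genes tested, while 51.6% did not overlap and were higher. *Il27* had a log2 fold change of -7.81 (SE 0.35, limma adjusted p = 5.84e-09), which placed it 11742 of 11743 when genes were ordered from the highest to the lowest value. *Il12b* followed with -6.54, *Il10* with -5.47, *Il23a* with -4.26, *Il6* with -4.19, *Csf2* with -3.50, *Lif* with -2.09 and *Ebi3* with -0.94. Without LPS 3 d replicate 3 the values were -5.21 for *Il12b*, which then came after *Il10* (-5.46), and -3.40 for *Il6*, and the same 8 genes were lower. *Ebi3* kept 51.5% of its LPS 4 h mean, *Lif* 23.2%, *Il23a* 4.12% and *Il10* 2.20%. Centred on the median gene, *Csf3* (log2 fold change -1.26, adjusted p = 0.0114) and *Il12a* (-1.67, adjusted p = 0.0239) were lower as well, and *Il12a* also without LPS 3 d replicate 1 (-1.56, adjusted p = 0.0341).

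**Figure D4:**
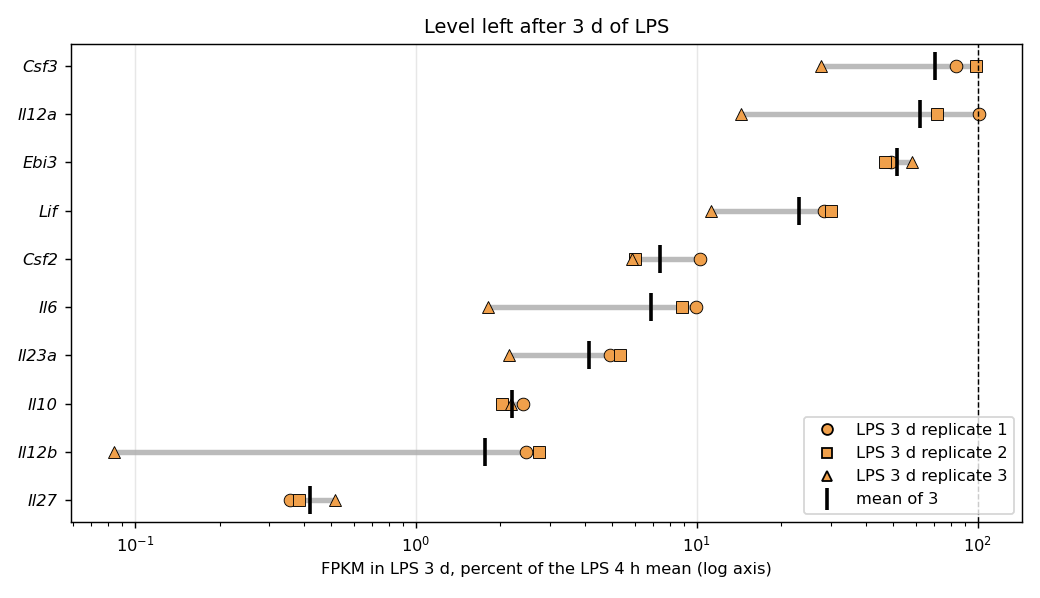
FPKM of each gene in the 3 samples of LPS 3 d, as percent of its LPS 4 h mean on a log axis, with a symbol for each replicate, a grey bar for their range, a black tick for the mean of 3 and a dashed line at 100%. *Csf3*, *Il12a* and *Ebi3* kept over 50% on average, *Il27* kept 0.419%, and the bar of *Il12b* runs from 0.0842% to 2.74% because replicate 3 was low.

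None of the 10 genes passed the test in RANKL 4 h. By limma 0 were higher and 0 lower, and 0 by voom, against 0.111% of all genes higher and 0.00852% lower. With so few calls over all genes, this count does not set the 10 genes apart from others. Of the 10, 0 had an unadjusted p under 0.05 by limma. All 10 overlapped with control. *Il6* had 0.892, 0.384 and 0.606 FPKM, *Il10* had 3.56, 3.50 and 2.04 FPKM, and *Il27* had 3.06, 2.17 and 2.08 FPKM. *Ebi3*, with the most fragments in these groups, had 32.7, 35.6 and 31.2 FPKM, and its log2 fold change was -0.07 with a 95% interval from -0.39 to 0.25. For *Il12b* the interval was wide, from -2.37 to 1.67, so changes of that size were not detectable here. *Il23a* and *Csf3* were at 3 fragments or fewer in each RANKL 4 h sample, as low as in control, and no fold is given. Compared with LPS 4 h, all 10 genes were lower in RANKL 4 h, where 8.98% of all genes tested were lower and 41.0% higher (4818 higher and 1054 lower, or 1580 and 1905 with samples centred on their median gene). No samples of the 10 genes overlapped, and over all genes tested 11.5% lay wholly below LPS 4 h and 56.6% wholly above it. The log2 fold change in that comparison was -8.61 for *Il6*, -7.71 for *Il27* and -1.95 for *Ebi3*. Both comparisons use the RANKL 4 h samples.

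In RANKL 3 d *Lif* rose and *Il10*, *Il12a* and *Il27* fell, and 6 genes were not called, where 16.6% of all genes were called higher and 7.54% lower. With samples centred on their median gene the split over all genes turned from 1951 higher and 886 lower to 1167 higher and 1428 lower. The median log2 fold change was -0.63 over the 10 genes and 0.16 over all genes tested. For 6 of the 10 genes the samples did not overlap with control. Over all genes tested, 33.1% lay wholly above control and 16.1% wholly below it.

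*Lif* had 2.22, 0.925 and 2.55 FPKM in RANKL 3 d, above every control sample (0.130 to 0.349 FPKM) and every RANKL 4 h sample (0.156 to 0.415 FPKM). The log2 fold change against control was 2.52 (SE 0.43, limma adjusted p = 0.000867), which ranked 150 of 11743, and it was called in every alternative run. The level overlapped with LPS 3 d (0.582 to 1.56 FPKM), and the log2 fold change of RANKL 3 d over LPS 3 d was 0.61, with a 95% interval from -0.32 to 1.54. *Lif* exceeded *Il6* 9.92, 7.22 and 19.6 times in RANKL 3 d, the only group in which it did so in all 3 samples. Among markers 9 of 10 for osteoclasts and 6 of 12 for stromal cells rose in RANKL 3 d against control, where 16.6% of all genes rose. With samples centred on their median gene 2 of 12 stromal markers rose, and 1167 of 11743 genes tested. The osteoclast markers summed to 3168, 1721 and 5474 FPKM in RANKL 3 d and to 155 to 280 FPKM in control, with *Calcr* listed at 0 in all control samples. The stromal markers summed to 1855, 858 and 413 FPKM in RANKL 3 d and to 144 to 324 FPKM in control. The replicate with the lowest *Lif*, replicate 2, had the lowest osteoclast sum but the middle stromal sum, and the part of either cell type in *Lif* was not tested.

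*Il12a* was almost absent from RANKL 3 d, with 2 fragments in replicate 2 and 0 in the others. Against 47 fragments in control this is a ratio of 0.0443, with an exact 95% counting interval from 0.00522 to 0.169. The log2 fold change was -2.24 (SE 0.58, limma adjusted p = 0.0105), and the call was lost with 1 added to FPKM (adjusted p = 0.366) and with voom on fragments (adjusted p = 0.124). *Il27* had 2.03, 1.07 and 1.04 FPKM, all under the control samples, with a log2 fold change of -1.46 (SE 0.35, adjusted p = 0.00659). *Il10* had 1.02, 2.501 and 2.31 FPKM, just under the control minimum of 2.72 FPKM, with a log2 fold change of -1.17 (SE 0.33, adjusted p = 0.0157). That of *Il10* was not called without control replicate 1 (adjusted p = 0.0750), control replicate 2 (0.0530) or RANKL 3 d replicate 1 (0.0662), or in a fit of the 2 groups alone (0.0634).

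*Il6* had 0.224, 0.128 and 0.130 FPKM in RANKL 3 d, from 11 fragments in all, under every control sample. The fall by 1.30 on the log2 scale missed the limit (limma adjusted p = 0.0634) and passed it with the replicate number as a block (adjusted p = 0.0436), the range over all alternatives being 0.0291 to 0.466. *Ebi3* had 41.8, 45.2 and 40.0 FPKM, which did not overlap with control, but its log2 fold change of 0.28 was within the limits (adjusted p = 0.166). *Csf2* had 0.110, 0.139 and 0.142 FPKM from 11 fragments, and *Il12b* 0.469, 0.662 and 0.0395 FPKM, both overlapping with control. *Il23a* and *Csf3*, at 7 and 6 fragments over the 3 samples, gave no fold.

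Other markers moved with RANKL 3 d too: 7 of 8 B cell markers, 6 of 6 mast cell and basophil markers, 3 of 10 neutrophil markers and 2 of 7 dendritic cell markers were lower, and 1 of 8 T and NK cell markers was higher. In that comparison 7.54% of all genes tested were lower and 16.6% higher, and the T and NK cell count was not above that share. B cell markers summed to 10.7 to 22.1 FPKM, mast cell and basophil markers to 0.798 to 3.87 FPKM against 23.9 to 67.6 FPKM in control, and neutrophil markers to 1921 to 7702 FPKM. The LPS response genes, of which 5 of 8 were lower and *Nos2* was higher (0.813 to 2.14 FPKM on average, limma adjusted p = 0.0397), summed to 54.7 to 76.9 FPKM against 1065, 488 and 225 FPKM in the control replicates. Control replicate 1, with the highest of these sums, also had the highest value of the control samples for 8 of the 10 genes, all but *Il12b* and *Csf3*. The part of these cells and of the control background in the falls was not tested.

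Set against LPS 3 d, RANKL 3 d was lower for 7 of the 10 genes and higher for 0, where 12.8% of all genes were lower and 23.3% higher (2739 higher and 1506 lower, or 2237 and 2045 with samples centred on their median gene). The genes not called were *Il12b*, *Il27* and *Lif*. Log2 fold changes were -5.86 for *Il6*, -5.73 for *Il12a*, -5.89 for *Csf3* and -1.18 for *Il10*, and without LPS 3 d replicate 3 those of the first 3 were -6.64, -6.56 and -6.45. In RANKL 3 d *Il12a* rested on 2 fragments and *Csf3* on 6, so their values depend on the 0.1 added to FPKM. The fragment ratio of LPS 3 d to RANKL 3 d had an exact 95% counting interval from 107 to 3195 for *Il12a* and from 116 to 689 for *Csf3*. *Il12b* was lower without LPS 3 d replicate 3 (log2 fold change -3.02, limma adjusted p = 0.00345), and *Ebi3*, at -0.66, came within the fold limit without that sample (-0.57). *Csf2* and *Il23a* were not called with 1 added to FPKM or with voom (adjusted p = 0.0503 to 0.126). Between the RANKL times, *Lif* was higher in RANKL 3 d (log2 fold change 2.32) and *Il6* (-1.44, limma adjusted p = 0.0449) and *Il12a* (-2.13, adjusted p = 0.0144) were lower, in a comparison where 16.4% of all genes were higher and 6.83% lower (1930 higher and 802 lower, or 1141 and 1351 with samples centred on their median gene). The call of *Il6* was lost in 10 alternatives, among them each of the 3 that left out a RANKL 3 d sample (adjusted p = 0.0531 to 0.406 over the 10). That of *Il12a* was lost with 1 added to FPKM (adjusted p = 0.395), with voom (0.143) and without RANKL 4 h replicate 1 (0.0663).

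The order of the groups differed by gene. LPS 4 h was highest for all 10, with no overlap with the next group except for *Il12a* and *Csf3*, where LPS 3 d overlapped. By mean, LPS 3 d came next for 7 genes, control for *Il10* and *Il27*, and RANKL 3 d for *Lif*. For *Il10*, *Il12b*, *Il27*, *Lif* and *Csf2* this next group overlapped with the one after it. RANKL 3 d had the lowest mean for *Il6*, *Il10*, *Il12a*, *Il12b*, *Il27* and *Csf2*. Of these, only *Il6* and *Il12a* did not overlap there with the group next above. Control and RANKL 4 h overlapped for every gene.

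Among 13 related cytokines outside the 10, 9 were tested and 7 rose in LPS 4 h, with 0 lower, where 8.43% of all genes rose and 39.7% fell. They were *Clcf1*, *Csf1*, *Il11*, *Il19*, *Il22*, *Il5* and *Osm*. *Il5*, listed at 0 in every control and RANKL sample, passed the filter on low values through the LPS groups alone. The genes not tested fell under that filter, so the count of 7 is not independent of it. *Il19*, of the IL-10 family, was listed at 0 in every control sample and had 9.39 ± 1.93 FPKM (SD, n = 3) in LPS 4 h. It too passed the filter through the LPS groups alone, with a log2 fold change of 0.17 against control in both RANKL groups. *Csf1*, which encodes M-CSF itself, went from 10.2 to 31.4 FPKM on average, a log2 fold change of 1.64. After 3 d of LPS 2 rose (*Il22* and *Osm*), where 13.0% of all genes tested rose. Without LPS 3 d replicate 3, 5 rose, and the genes called higher over all genes went from 1522 to 2115. *Osm* was not called with samples centred on their median gene. In RANKL 3 d 1 rose, *Il34*, the other ligand of the M-CSF receptor, from 0.0735 to 0.624 FPKM (log2 fold change 1.90, SE 0.42, limma adjusted p = 0.00418). The share of all genes that rose there was 16.6%. *Il3* was listed at 0 in all 15 samples.

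Of 15 receptor genes tested, 3 rose and 4 fell in LPS 4 h, where 8.43% of all genes tested rose and 39.7% fell. Those for IL-6 fell, with *Il6ra* going from 17.4 to 3.80 FPKM (log2 fold change -2.16, limma adjusted p = 7.51e-07) and *Il6st* from 17.3 to 6.25 FPKM (-1.42, adjusted p = 0.000461). *Il10ra*, the ligand-binding chain for IL-10, rose from 40.5 to 110 FPKM (1.38), and *Osmr* and *Il23r* rose from under 1 FPKM. *Il10rb* and *Lifr* fell by 0.86 and 0.83 on the log2 scale, and neither call was kept with samples centred on their median gene. With that centring 5 receptors rose and 2 fell, and over all genes 1871 rose and 1529 fell. At the later LPS time 4 rose (*Csf2rb*, *Csf2rb2*, *Il23r* and *Osmr*) and 3 fell (*Il6ra*, *Il27ra* and *Lifr*), against 13.0% and 14.4% of all genes. In RANKL 3 d *Csf1r*, the M-CSF receptor, rose from 198 to 325 FPKM (0.71), which was lost with samples centred on their median gene (0.49), and *Csf3r* and *Il12rb1* fell, the first not with FPKM rescaled to equal sums. Of all genes, 16.6% rose and 7.54% fell there. No receptor was called in RANKL 4 h.

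Among 17 kinases, STAT factors and inhibitors of this signaling, 6 rose and 2 fell in LPS 4 h, beside the same 8.43% and 39.7% of all genes. *Socs3*, the inhibitor of gp130 signaling, went from 3.57 to 467 FPKM (log2 fold change 7.09, SE 0.31, limma adjusted p = 2.00e-09) and was still at 70.6 FPKM in LPS 3 d (4.36, adjusted p = 1.17e-06). *Socs1*, which limits interferon and STAT signaling, went from 14.4 to 242 FPKM in LPS 4 h (4.30) and was at 15.04 FPKM in LPS 3 d. *Cish*, *Jak2*, *Stat3* and *Stat5a* also rose, and *Pias3* and *Stat6* fell. The fall of *Stat6* was not called with samples centred on their median gene. With that centring 10 of the 17 genes rose and 1 fell, and over all genes 1871 rose and 1529 fell. After 3 d of LPS *Socs3* and *Stat6* rose and *Ptpn6* fell, where 13.0% of all genes rose and 14.4% fell. In RANKL 3 d 0 rose and 2 fell, against 16.6% and 7.54% of all genes: *Socs1* from 14.4 to 2.56 FPKM (-2.30, adjusted p = 0.0104) and *Stat2* from 105 to 35.8 FPKM (-1.54, adjusted p = 0.00196).

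**Figure D5:**
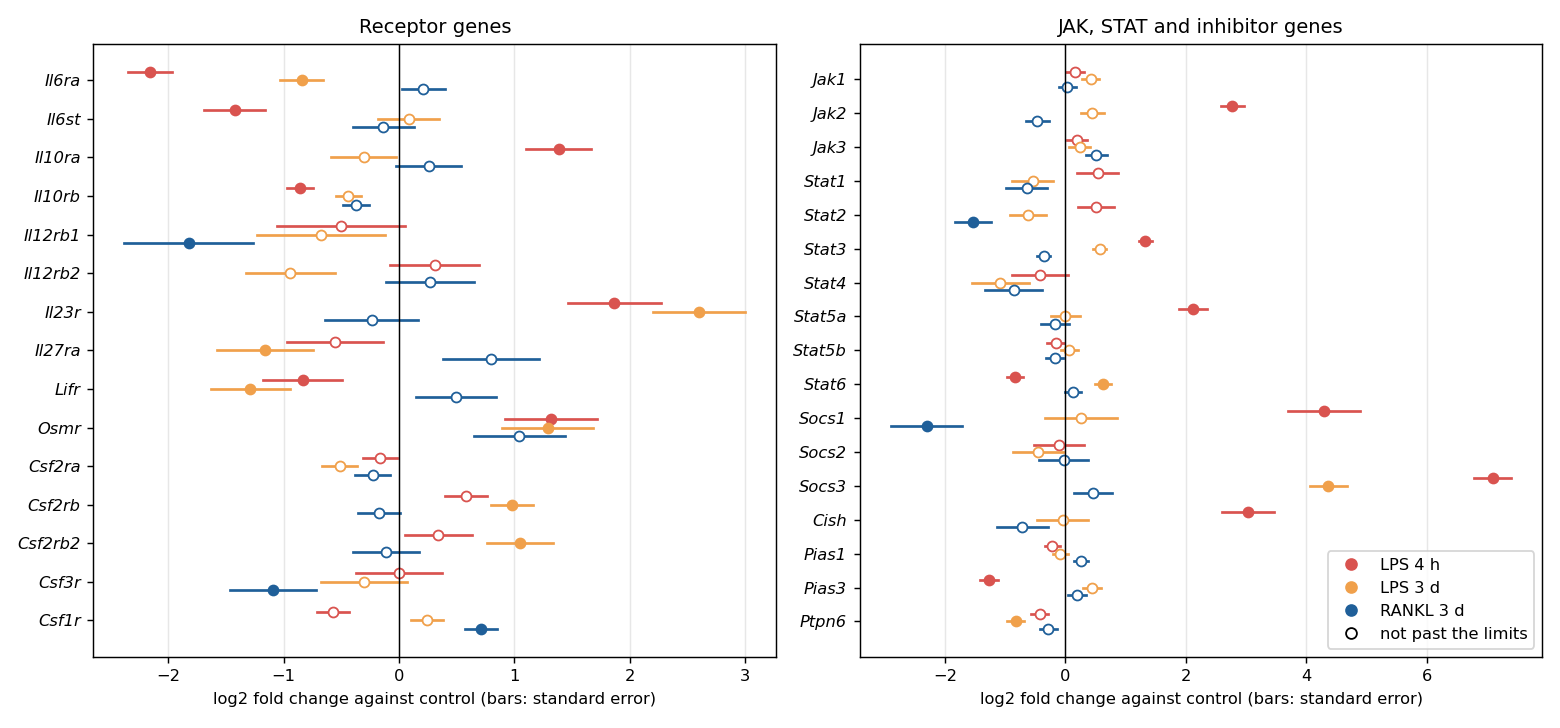
Log2 fold change against control of 15 receptor genes and of 17 genes for kinases, STAT factors and inhibitors, in LPS 4 h, LPS 3 d and RANKL 3 d, with the standard error as a bar, filled points for genes past the fold and adjusted p limits and open points for the rest. *Socs3* stands at 7.09 in LPS 4 h and 4.36 in LPS 3 d, and *Il6ra* at -2.16 in LPS 4 h, and the calls of *Il10rb*, *Lifr* and *Stat6* in LPS 4 h and of *Csf1r* in RANKL 3 d and *Stat6* in LPS 3 d were lost with samples centred on their median gene.

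Of 32 factors known to act on these cytokine genes or their mRNA, 21 rose and 6 fell in LPS 4 h. Of all genes tested, 8.43% rose and 39.7% fell there. With samples centred on their median gene 22 of the factors rose and 3 fell, and over all genes 1871 rose and 1529 fell. *Nfkbiz*, a nuclear cofactor of NF-κB that the *Il6* and *Il12b* genes need, went from 4.32 to 173 FPKM (log2 fold change 5.30, limma adjusted p = 1.49e-09), and the NF-κB subunits *Nfkb1*, *Nfkb2*, *Rel*, *Rela* and *Relb* all rose. *Cebpa*, a factor of myeloid differentiation, fell from 76.9 to 10.8 FPKM (-2.85). At the later LPS time 15 rose and 4 fell, against 13.0% and 14.4% of all genes. *Nfkbiz* was then at 18.9 FPKM, and *Hif1a* and *Ets2* were at 78.2 and 43.1 FPKM, against 23.8 and 12.02 FPKM in control. In RANKL 4 h 1 rose, *Nfkb2*, a subunit of the non-canonical NF-κB route, from 11.7 to 24.1 FPKM (1.05, adjusted p = 0.0449), and not with samples centred on their median gene. Of all genes tested, 0.111% rose in RANKL 4 h. In RANKL 3 d 7 rose and 11 fell, where 16.6% of all genes rose and 7.54% fell. With samples centred on their median gene 5 of the factors rose and 11 fell, and over all genes 1167 rose and 1428 fell. *Nfkb2* was at 55.1 FPKM (2.24), *Relb* at 16.3 FPKM (1.61) and *Egr1* at 5.53 FPKM against 1.17 FPKM in control (2.16, adjusted p = 0.000175). *Irf7*, the regulator of type I interferon genes, fell from 1022 to 206 FPKM (-2.25, adjusted p = 0.000136), and *Irf8*, *Irf5*, *Irf4*, *Batf*, *Batf2*, *Batf3*, *Cebpa*, *Cebpb*, *Atf3* and *Arid5a* fell as well.

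The genes most like each of the 10 over the 15 samples, by Pearson's r of log2(FPKM + 0.1), describe these courses, with r set largely by the LPS samples that all pairs share. *Il6* was nearest to the chemokines *Cxcl2* (r = 0.994) and *Cxcl1* (0.991) and to *Il1a* (0.993). *Il10* was nearest to *Cd69* (0.988), *Il27* to *Dusp2* (0.988), *Il12a* to *Cd274* (0.986), *Il23a* to *Rnd1* (0.985), *Csf2* to *Katna1* (0.979), *Csf3* to *Tma16* (0.979), *Ebi3* to *Tnfsf9* (0.978), *Il12b* to *Cd40* (0.967) and *Lif* to *Traf1* (0.966). Within the 10, *Il10* and *Il27* were the most alike (0.979) and *Il12a* and *Lif* the least (0.503).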

How the data were processed

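The 15 RNA-seq samples of mouse BMDMs were placed in 5 groups by their labels. Per the labels, libraries were made from total RNA with a SMARTer mRNA kit, and the submitters' processing notes name StringTie and the builds GRCm38.p4 and mm10. The authors deposited FPKM per gene and sample, made with StringTie and Ballgown according to their methods. The aligner, the annotation version and the use of strand are not given in the sources used here. The last row of the table was incomplete, and genes after *Tti2* in alphabetical order were not analysed here.

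Within a gene and sample, FPKM rose in steps of 1 fragment. Fragments were recovered from these steps for 14485 genes, with 100% of values within 0.01 of a whole fragment, and totals of 18306184 to 20330207 fragments per sample. On simulated data the recovery was exact for 2962 of 2962 genes. Libraries of a group differed by 8.15 to 60.8 times the chi-square of repeat sampling, so none was counted as a repeat run.

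The main test was limma 3.58.1 in R 4.3.3 (lmFit, eBayes with trend) on log2(FPKM + 0.1), with all 5 groups fitted together over 11743 genes, with the fold limits 1.5 and 0.66 of the study's methods and Benjamini-Hochberg adjustment over all genes. The study's methods use an unadjusted p of 0.05. With 3 samples against 3, a two-sided exact permutation test gives p = 0.1 at the least, the value for every pair of groups that did not overlap. Exact 95% counting intervals were taken from recovered fragments, and no fold was given where both groups had a mean of 3 fragments per library or fewer. Where 1 group was that low, the fragment ratio with its interval was given, and the log2 fold change depends on the pseudocount. Alternatives were a pseudocount of 1 or 0.01, no filter or a mean of at least 1 FPKM, 2 other scalings, the 2 groups alone, a replicate block, the unadjusted p, no fold limit, no trend, voom on fragments and leaving out each replicate.

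Deviations from the group means over 9486 genes were compared between samples that carry the same number in the labels, and their correlations were 0.44 to 0.62 between control and LPS 4 h, 0.71 to 0.84 between control and RANKL 4 h, 0.55 to 0.69 between RANKL 4 h and LPS 4 h, 0.14 to 0.32 between control and RANKL 3 d and 0.16 to 0.25 between the RANKL times. In 2 cases a sample with another number correlated more, control with RANKL 3 d for replicate 3 (0.26 against 0.18) and between the RANKL times for replicate 2 (0.17 against 0.16). The numbers were taken to pair the samples there, by this check and not by a label, and not in comparisons with LPS 3 d. The main test did not include this pairing, and calls with the replicate number as a block are given in the last section.

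The genes named are the 10 cytokine genes, the lists of related cytokines, receptors, transducers, regulators and cell markers, the 3 genes most correlated with each of the 10, from which those printed were taken, and genes that the annotation places over them. The 10 genes and the lists were chosen with earlier results of these data known. Upstream sequences and positions are from RefSeq on GRCm38.p6. Other steps used Python 3.11.15, numpy 2.4.6, pandas 2.3.3, scipy 1.17.1 and matplotlib 3.10.9.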

Additional observations from a re-analysis of the deposited data

Results flagged for a closer look

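The difference between the responses at 3 d and at 4 h was tested directly by limma in the fit of the 5 groups. Since both responses are taken against the same control samples, this difference is that of the stimulated groups themselves. For LPS it was -4.19 for *Il6*, -5.47 for *Il10*, -6.54 for *Il12b*, -4.26 for *Il23a*, -7.81 for *Il27*, -0.94 for *Ebi3*, -2.09 for *Lif* and -3.50 for *Csf2* on the log2 scale, all lower at 3 d (adjusted p between 5.84e-09 and 0.000737). *Il12a* and *Csf3* did not pass this test, with 95% intervals of the difference from -2.26 to 0.23 and from -1.48 to 0.25.

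For RANKL the response of *Lif* was higher at 3 d than at 4 h by a log2 difference of 2.32 (limma adjusted p = 0.00164), and it was called in every alternative run. That of *Il6* was lower by -1.44 (adjusted p = 0.0449) and that of *Il12a* by -2.13 (adjusted p = 0.0144). Both rest on few fragments, 11 for *Il6* and 2 for *Il12a* in the RANKL 3 d samples together, and neither was called with 1 added to FPKM (adjusted p = 0.403 and 0.395), with voom (0.406 and 0.143) or without RANKL 4 h replicate 1 (0.153 and 0.0663). *Il6* was also not called with no filter on the mean (0.0646), with FPKM rescaled to equal sums (0.0531), without a trend (0.0541), without RANKL 4 h replicate 3 (0.0886), or without RANKL 3 d replicate 1 (0.0591), 2 (0.111) or 3 (0.111). For LPS, without LPS 3 d replicate 3 the difference was -3.40 for *Il6* and -5.21 for *Il12b*.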

How the results depend on the processing

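Among alternative values for the 10 genes, 180 of 180 for LPS 4 h against control kept their call or lack of one. So did 180 of 180 for RANKL 4 h against LPS 4 h and 178 of 178 for RANKL 4 h against control. Values that were not called could change sign, as for *Il6* in RANKL 4 h against control (log2 fold change -0.15 to 0.40). In LPS 3 d against control 168 values kept theirs, 9 lost the call and 3 gained it, in RANKL 3 d against control 167, 6 and 5, in LPS 3 d against LPS 4 h 177, 0 and 3, in RANKL 3 d against LPS 3 d 170, 6 and 4, and in RANKL 3 d against RANKL 4 h 162, 13 and 3. No call was reversed. The number of the 10 genes called in RANKL 3 d against RANKL 4 h, 3, fell to 1 with a pseudocount of 1, with voom on fragments or without RANKL 4 h replicate 1. The cause was not tested. Calls over all genes went from 2732 in the main test to 2151, 2774 and 1942 in these runs. Over the replicates left out in turn, the number of the 10 genes called there ranged from 1 to 3, and calls over all genes from 1942 to 2527. In LPS 3 d against control these ranges were 6 to 8 and 2471 to 3956. In RANKL 3 d against control they were 3 to 4 and 2061 to 2762. LPS 3 d against LPS 4 h gave 8 to 9 and 6272 to 7104. RANKL 3 d against LPS 3 d gave 7 to 8 and 3585 to 4843. All 10 genes were called throughout in LPS 4 h against control (5169 to 5720 over all genes) and in RANKL 4 h against LPS 4 h (5456 to 5807). In RANKL 4 h against control 0 were called throughout (1 to 15 over all genes).

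With the replicate number as a block, 10 genes were called in LPS 4 h against control and 0 in RANKL 4 h against control. In RANKL 3 d 5 were called against control (*Il6* added) and 4 against RANKL 4 h (*Il27* added, limma adjusted p = 0.0330). Calls over all genes rose with the block from 5650 to 5827, 14 to 24, 2837 to 3149 and 2732 to 3006 in these comparisons. In comparisons with LPS 3 d the samples share only a number, with correlations from -0.23 to 0.18. There the block added *Il27* against control (limma adjusted p = 0.0455) and *Il12b* and *Il27* in RANKL 3 d against LPS 3 d. Over all genes, calls rose with it from 3212 to 3433 and from 4245 to 4436. The block changed no other call of the 10 genes. Over all genes, RANKL 4 h against control gave 14 calls in the main test, 24 with the block, 301 with an unadjusted p, 3 with the 2 groups alone, 3 without a trend, and 1 to 15 when replicates were left out in turn. With samples centred on their median gene, LPS 4 h against control gave 3400 calls over all genes in place of 5650 and RANKL 4 h against LPS 4 h 3485 in place of 5872. Fits of 2 groups alone gave no value for *Il23a* and *Csf3* where neither group had LPS, as they fell under the filter. Depth limits *Il23a*, *Csf3*, *Csf2*, *Il12a* and *Il6* outside the LPS groups, which rest on few fragments.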
